A study of Mus musculus with 6 samples.

Results

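Dgcr8, Xpo5, Dicer1, Tarbp2, Tnrc6a, Tnrc6b and Tnrc6c encode proteins that make microRNAs (miRNAs), carry their precursors out of the nucleus, or silence target mRNAs. These 7 genes were taken by symbol from the 22609 genes counted in primary white adipocytes. No cutoff on their values was used, but earlier results of these data were known when the genes were chosen. All 7 had enough reads to be tested, as did 13117 genes in all. The cells were stromal cells of inguinal (subcutaneous) fat of male C57BL6 mice, labelled as aged 3 weeks, that were differentiated in culture, and they carried either a miR-182-5p mimic, a synthetic double-stranded form of the miRNA, or its control (n = 3 samples per group). The labels call the control a control vector delivered by electroporation, whereas the methods of the study describe a mimic control, a lipid transfection reagent and another age. Neither says whether the samples of a group came from separate mice or cultures, so the p values measure the spread between these samples, which may be technical.

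miRNA genes are transcribed as long precursors. In the nucleus the Microprocessor, formed by the nuclease Drosha and the RNA-binding protein DGCR8, cuts out a hairpin, which exportin-5 (Xpo5) carries to the cytoplasm. There Dicer, with its partner TRBP (Tarbp2), trims the hairpin to a short duplex, and a strand of it is loaded into an Argonaute protein. Argonaute binds a GW182 protein (Tnrc6a, Tnrc6b or Tnrc6c), which recruits the deadenylases and decapping factors that shorten and degrade the target mRNA. A mimic enters after the nuclear steps and competes with the miRNAs of the cell for Argonaute.

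The mature miRNA and its seed, bases 2 to 8, are shown because a 7-base match to the seed in a 3′-UTR is the usual mark of a target. Capitals mark the seed. RefSeq places miR-182-5p on the minus strand of chromosome 6 of GRCm38.p6, at chr6:30165962-30165986. The study's qRT-PCR methods print another sequence under the name miR-182-5p, that of miR-30b-5p, with the seed of the miR-30 family. The miRNA reference used here held no miR-30b-5p, so miR-30c-5p is shown for comparison (plus strand, chr1:23291714-23291736). It shares that seed but differs from the sequence in the methods near its 3′ end. The methods give no sequence for the mimic itself.
miR-182-5p: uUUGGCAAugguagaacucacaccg
miR-30c-5p: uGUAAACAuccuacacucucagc

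TTGCCAA, the match to the miR-182-5p seed, was searched on the sense strand of the longest 3′-UTR of each gene in the GENCODE M21 annotation of GRCm38. It occurred in 2162 of 19787 genes (10.9%). Of the 7 genes, Tnrc6b alone held it, with 2 matches in a 3′-UTR of 11609 bases, neither followed by the A that makes an 8-base match. The matches in Tnrc6b lie at 3′-UTR positions 5778 to 5784 and 8371 to 8377 and are printed with the bases around them, the match in capitals. In the coding sequence, where 14.4% of genes held TTGCCAA, Dicer1 had 2 matches and Tnrc6b and Tnrc6c had 1 each.
Tnrc6b, upstream match: tctccatgtttTTGCCAAgttttgtcacag
Tnrc6b, downstream match: ggaaggtctgaTTGCCAAgcaaatttgggg

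TGTTTAC, the match to the miR-30 seed, was present in the 3′-UTR of 14.2% of genes. All 3 GW182 genes held it, Tnrc6a with 4 matches, Tnrc6b with 3 and Tnrc6c with 2, and the other 4 genes held none. A match describes these letters and is not evidence that the miRNA binds.

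The files held raw read counts, 25869810 to 28796712 reads on genes per sample, of which the 7 genes took 0.0488% to 0.0526%. Counts were scaled by edgeR's TMM method to CPM, reads relative to the effective library size. Adipocyte markers were expressed, with a sum over 12 genes of 8665 to 9090 CPM in control samples and 6102 to 6842 CPM with the mimic, where 9 of the 12 were lower and 1 was higher (adjusted p under 0.05). Markers of other cells summed to 11.9 to 14.9 CPM over 11 macrophage genes and 8.89 to 10.03 CPM (controls) and 5.47 to 6.27 CPM (mimic) over 7 endothelial genes, and Cd163 and Cldn5 had 0 reads. Of the 3 macrophage genes tested, Lyz2 alone was called, and it was lower (means 1.24 and 0.795 CPM, log2 fold change -0.63). It had 18 to 34 reads per sample, and Cd68 and Csf1r did not pass the test. Of the 4 endothelial genes tested, Tek alone was called (means 6.05 and 2.43 CPM, log2 fold change -1.31). Cdh5, Kdr and Vwf did not pass the test. The 6 skeletal muscle markers summed to 26.1 to 27.5 CPM in controls and 36.2 to 39.7 CPM with the mimic, without overlap, where Acta1 (skeletal actin) alone was higher (log2 fold change 0.73, past both cutoffs) and Myh4 and Ckm had 0 reads. The 6 erythroid markers summed to 0.137 to 0.746 CPM, with 5 of the 6 at 0. The 10 stromal progenitor markers summed to 21705 to 22817 CPM in controls and 20556 to 21417 with the mimic. Most of this sum was Col1a1 (means 19248 and 18643 CPM), which did not pass the test. Of the 10 markers, 9 were tested, 6 were lower and 1 was higher. Their log2 fold changes ran from -1.53 (Cd34) to 0.19 (Thy1). In bulk RNA, fewer cells of a type and less RNA per cell cannot be told apart. The sum of 16 interferon-response genes stood apart in the samples numbered 1. It was 339 CPM in control replicate 1 against 579 and 612 in the others, and 1085 CPM in mimic replicate 1 against 557 and 547. Of these 16 genes, 8 were higher with the mimic and 0 were lower. By the same threshold, 23.2% of all genes tested were higher and 23.5% lower. The CPM of the groups did not overlap in 3 of the 16, as against 54.8% of all genes tested. Isg15, for example, was called, yet it was at 42.5 and 46.1 CPM in control replicates 2 and 3. It was at 47.9 and 42.2 CPM in mimic replicates 2 and 3. The part of these markers in the results below was not tested, and values without the samples numbered 1 are given for several genes.

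Expression of the 7 genes changed little and in both directions. Xpo5 and Tnrc6a rose, Dgcr8 and Dicer1 fell, and Tarbp2, Tnrc6b and Tnrc6c did not pass the test. By edgeR's quasi-likelihood test with adjustment over all genes, 4 of the 7 had an adjusted p under 0.05, where 46.7% of all genes tested did so (23.2% higher, 23.5% lower). A share of 4 in 7 is near that background. In the same 4 genes the CPM of the groups did not overlap, as in 54.8% of all genes (27.3% higher, 27.5% lower). None of the 7 reached the study's 1.5-fold cutoff, with 0 called where 7.45% of all genes passed both cutoffs. At an unadjusted p under 0.05 the count is also 4, and DESeq2 likewise called 4 by adjusted p and 0 by both cutoffs. Their log2 fold changes, mimic against control, ran from -0.24 to 0.16 with a median of -0.0045, and the median over all genes tested was -0.0043. In size, the change of Dgcr8 was above that of 65.7% of genes tested, and the change of Tnrc6c above that of 1.52%. With both samples numbered 1 left out, a setting added after the interferon sums were seen, 5 of the 7 were called, 3 higher and 2 lower.

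**Figure D1:**
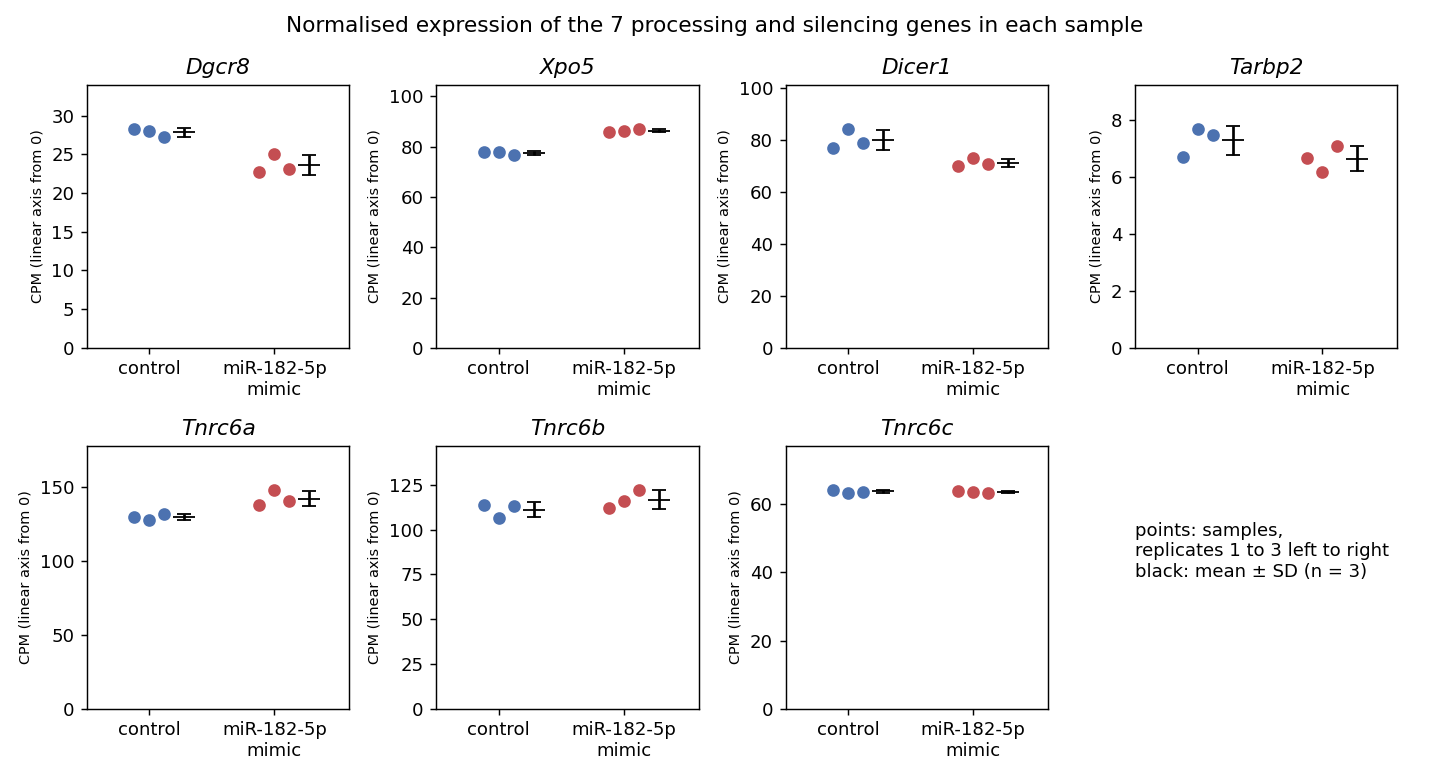
Each panel plots the expression of a gene in CPM on a linear axis from 0, with points for the 3 control and 3 miR-182-5p mimic samples (replicates 1 to 3 from left to right) and the mean ± SD in black. Control and mimic points are apart for Dgcr8, Xpo5, Dicer1 and Tnrc6a and overlap for Tarbp2, Tnrc6b and Tnrc6c.

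Dgcr8 (chromosome 16 of GRCm38, 18253948 to 18289246, minus strand) showed the largest change of the 7 in this fit. Its expression was 28.3, 28.1 and 27.2 CPM in control replicates 1 to 3 and 22.7, 25.1 and 23.1 CPM in mimic replicates 1 to 3. Every mimic sample lay below every control sample. The means were 27.9 ± 0.588 and 23.6 ± 1.29 CPM (SD, n = 3 each). The log2 fold change was -0.24 (standard error, SE, 0.055, 95% interval -0.36 to -0.12, edgeR adjusted p = 0.00266), or 15.3% lower. Trmt2a, a tRNA methyltransferase gene on the opposite strand, overlaps 825 of the exon bases of Dgcr8, and whether counting used the strand is not given in the sources used here. Trmt2a itself had a log2 fold change of 0.047 (SE 0.044, edgeR adjusted p = 0.412). In the GENCODE M21 annotation, the exons of Dgcr8 also share 327 bases with Gm49776, a protein-coding gene on the same strand. They hold 2 genes annotated as miRNAs on that strand, Mir1306 (79 shared bases) and Gm24572 (88). The effect of these overlaps on the counts was not tested. DGCR8 has no nuclease activity of its own and anchors the hairpin for Drosha, and the Microprocessor is known to cut hairpins in the Dgcr8 mRNA.

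Drosha, the nuclease of the same complex, moved the other way. It was at 65.8, 65.2 and 59.6 CPM in controls and at 70.7, 69.2 and 73.4 CPM with the mimic, without overlap. The log2 fold change was 0.16 (SE 0.044, edgeR adjusted p = 0.0071). The 95% intervals of Dgcr8 (-0.36 to -0.12) and Drosha (0.069 to 0.26) lie on opposite sides of 0. Of 12 further Microprocessor and cofactor genes, Drosha included, 5 were higher and 0 lower (41.7% called, against 46.7% of all genes), and of these Safb2 lost its call with both samples numbered 1 left out. Besides Drosha the smallest p values were those of Srrt (ARS2, which links capped transcripts to the Microprocessor, log2 fold change 0.15) and the helicase gene Ddx17 (0.11).

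Xpo5 (chromosome 17, 46202782 to 46243598, plus strand) had the smallest p of the 7. It was at 77.7, 77.9 and 76.7 CPM in controls and 85.7, 86.3 and 87.1 CPM with the mimic. The samples of each group lay close together and the groups did not overlap. The means were 77.4 ± 0.635 and 86.3 ± 0.698 CPM (SD, n = 3 each). The log2 fold change was 0.16 (SE 0.031, 95% interval 0.090 to 0.22, edgeR adjusted p = 0.000895), or 11.5% higher. Ran, the GTPase that exportins need to hold their cargo, fell by 0.11 on the log2 scale (edgeR adjusted p = 0.0436), and its groups overlapped. That call of Ran was kept in 7 of 16 alternative settings, and without 1 sample it was lost for control replicates 1 and 2 and mimic replicates 2 and 3 (-0.14 to -0.072 over all 6). Xpo1, the general export receptor of proteins and of several RNA classes, rose by a log2 fold change of 0.17. The other 3 export genes on the list did not pass the test.

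Dicer1 (chromosome 12, 104687742 to 104751952, minus strand) was at 77.0, 84.5 and 79.0 CPM in controls and at 70.1, 73.2 and 70.9 CPM with the mimic. The control values spread more than the mimic values, with replicate 2 the highest, and the groups did not overlap. The means were 80.2 ± 3.85 and 71.4 ± 1.59 CPM (SD, n = 3 each). The log2 fold change was -0.17 (SE 0.040, 95% interval -0.25 to -0.083, edgeR adjusted p = 0.00309), or 1.12-fold lower. The fold change ran from -0.20 to -0.13 when each sample was left out in turn, and Dicer1 was called each time.

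Tarbp2 (chromosome 15, 102518192 to 102523676, plus strand), the partner that helps Dicer bind and hand over the duplex, was the lowest of the 7, with 163 to 201 reads per sample. It was at 6.72, 7.70 and 7.47 CPM in controls and at 6.68, 6.19 and 7.08 CPM with the mimic, and the groups overlapped. The log2 fold change was -0.13 (SE 0.094, edgeR adjusted p = 0.271). Its 95% interval, -0.33 to 0.069, is the widest of the 7 and includes a decrease as large as that of Dicer1. Without 1 sample the value ran from -0.19 to -0.081, the latter without mimic replicate 2. Prkra (PACT), the other double-stranded RNA-binding partner of Dicer, was lower without overlap, with a log2 fold change of -0.18 (edgeR adjusted p = 0.0326), a call kept in 8 of 16 alternative settings. Without 1 sample its value ran from -0.25 to -0.11, passing the test only without mimic replicate 2, and it was -0.095 with both samples numbered 1 left out. Among the values without 1 sample, the one nearest to 0 (-0.11) was that without mimic replicate 1. None of the other 6 Dicer partners or regulators on the list passed the test. Adar, an RNA-editing enzyme that also binds Dicer, was at 61.5, 75.3 and 83.8 CPM in controls and at 109, 75.4 and 76.8 CPM with the mimic, so its lowest and highest values fell in the samples with the lowest and highest interferon-response sums.

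**Figure D2:**
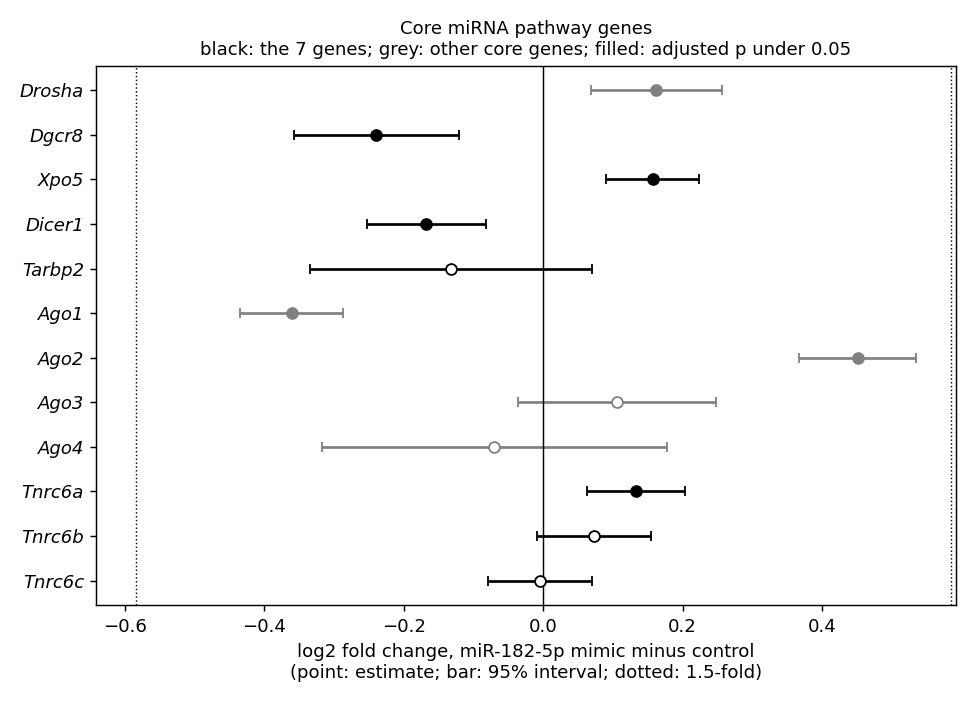
Log2 fold changes (mimic minus control) of the 7 genes in black and of Drosha and the Argonaute genes in grey, with 95% intervals. Filled points have an edgeR adjusted p under 0.05 and dotted lines mark 1.5-fold. The intervals of the 7 genes lie between -0.36 and 0.22, and those of Ago1 and Ago2 are farther from 0 on opposite sides.

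The GW182 genes encode the scaffold proteins that bridge Argonaute and the deadenylases. Tnrc6a (chromosome 7, 123123885 to 123195296, plus strand) was at 129, 127 and 132 CPM in controls and 138, 148 and 140 CPM with the mimic. The groups did not overlap, and the log2 fold change was 0.13 (SE 0.033, 95% interval 0.063 to 0.20, edgeR adjusted p = 0.00402), or 9.69% higher. Tnrc6b (chromosome 15, 80711313 to 80941085, plus strand) was at 114, 106 and 113 CPM in controls and 112, 116 and 122 CPM with the mimic. Its groups overlapped, mimic replicate 1 lying below 2 of the controls, and the log2 fold change was 0.073 (SE 0.038, 95% interval -0.0085 to 0.15, edgeR adjusted p = 0.133). Without mimic replicate 1, Tnrc6b passed the test with a log2 fold change of 0.10 (edgeR adjusted p = 0.0362), and over all 16 alternatives its adjusted p ran from 0.018 to 0.429. Tnrc6b, which holds both 3′-UTR matches to the miR-182-5p seed, was not lower in any of these settings, all drawn from the same 6 samples. Whether the miRNA acts on Tnrc6b was not tested.

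Tnrc6c (chromosome 11, 117654289 to 117763439, plus strand) was at 64.4, 63.4 and 63.8 CPM in controls and 63.8, 63.7 and 63.4 CPM with the mimic. The values of the groups overlapped almost wholly. The log2 fold change was -0.0045 (SE 0.035, edgeR adjusted p = 0.929), and the 95% interval, -0.079 to 0.070, bounds a change in either direction. Library size cancels in the ratio of paralogs within a sample. The ratio of Tnrc6a to Tnrc6c reads was 2.01, 2.01 and 2.07 in controls and 2.16, 2.33 and 2.21 with the mimic, without overlap. Its log2 difference was 0.14 (two-sided exact permutation test, p = 0.1, or 0.3 after adjustment over 3 pairs, where 0.1 is the lowest p this design can give). The ratios of Tnrc6a to Tnrc6b and of Tnrc6b to Tnrc6c overlapped between groups, with log2 differences of 0.061 and 0.077 (two-sided exact permutation test, p = 0.3 for each).

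Levels of different genes were compared per kilobase (kb) of exon, with the exons of each gene merged. In controls, Xpo5 was highest at 11.3 ± 0.0926 CPM per kb (SD, n = 3), followed by Tnrc6a at 10.2 ± 0.177. Tnrc6c (4.97 ± 0.0399), Dicer1 (4.79 ± 0.230) and Tnrc6b (4.69 ± 0.174) came next, each differing from its neighbour by less than the larger of their SDs. Dgcr8 stood at 3.62 ± 0.0764 and Tarbp2 at 1.604 ± 0.113 CPM per kb. With the mimic, Xpo5 (12.6 ± 0.102) and Tnrc6a (11.2 ± 0.425) were again the highest, and Tnrc6b (4.93 ± 0.219) lay above Dicer1 (4.26 ± 0.0950). With the longest transcript as the length and the mean over all 6 samples, Tnrc6a (16.6 CPM per kb) stood above Xpo5 (16.1), and both Dicer1 (7.69) and Dgcr8 (5.96) stood above Tnrc6c (5.50). Within the GW182 family, Tnrc6a made up 51.3% ± 0.373 of the summed CPM per kb in controls and 53.1% ± 1.03 with the mimic (SD, n = 3 each). Tnrc6c made up 25.0% ± 0.342 and 23.5% ± 0.576, and Tnrc6b 23.6% ± 0.479 and 23.4% ± 0.914.

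The Argonaute proteins, which the files list under the older symbols Eif2c1 to Eif2c4, hold the miRNA and bind GW182. Ago2 (Eif2c2), the only Argonaute of mammals known to cut a fully paired target efficiently, was at 110, 100 and 103 CPM in controls and 136, 145 and 147 CPM with the mimic. Ago1 (Eif2c1) was at 87.3, 83.4 and 83.8 CPM in controls and 65.4, 65.8 and 67.0 CPM with the mimic. Neither gene's groups overlapped, and they moved in opposite directions, with log2 fold changes of 0.45 for Ago2 (SE 0.039, edgeR adjusted p = 4.65e-07) and -0.36 for Ago1 (SE 0.034, edgeR adjusted p = 1.13e-06). Both changes are larger than that of any of the 7 genes above. Ago3 (0.11) and Ago4 (-0.070) did not pass the test. The Ago2 exons share 219 of 14031 bases with Chrac1 on the opposite strand, a gene with a log2 fold change of 0.049 (edgeR adjusted p = 0.528).

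The summed CPM per kb of the 4 Argonaute genes was 20.7 ± 0.707 in controls and 21.2 ± 0.805 with the mimic (SD, n = 3 each), a difference below either SD. Ago1 made up 50.4% ± 0.806 of it in controls and 38.3% ± 1.06 with the mimic, and Ago2 35.9% ± 0.595 and 48.0% ± 0.291. These shares rest on merged exon lengths, which set their size.

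**Figure D3:**
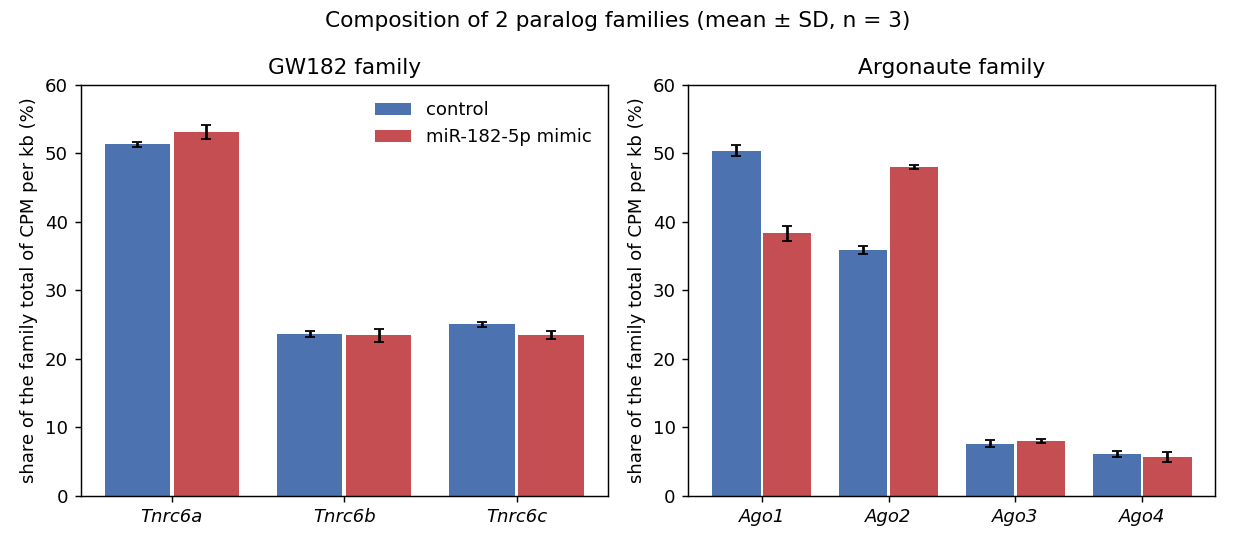
Bars give each paralog's share of the summed CPM per kb of its family (percent, axis from 0, mean ± SD, n = 3) in control and miR-182-5p mimic samples. The GW182 shares stay within 2 percentage points, whereas Ago1 goes from 50.4% to 38.3% and Ago2 from 35.9% to 48.0%.

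Both Ago1 and Ago2 hold TTGCCAA in the 3′-UTR, and their matches are printed below. Those of 3 other genes of the list, Fmr1, Fxr1 and Tsnax, were added because these genes were lower. The matches of Ajuba, which was higher, and of listed genes that did not pass the test are not printed here. All printed matches are on the sense strand of GENCODE M21 transcripts (GRCm38), the match in capitals. In Ago2 the match lies at position 222 to 228 of a 3′-UTR of 11064 bases, and in Ago1 at 1237 to 1243 and 2832 to 2838 of 4491 bases. Each match below except the downstream match of Ago1 is followed by an A.
Ago2, higher with the mimic: ggaaacatggtTTGCCAAacctataagctg
Ago1, upstream match, lower: acttgagtctaTTGCCAAaatctggaaatt
Ago1, downstream match, lower: tacaaacagtgTTGCCAAgcctcagcttgt
Fmr1, lower: tttaaaaagtaTTGCCAAacagtaatgttg
Fxr1, lower: cttgtacaagcTTGCCAAagatagaatacg
Tsnax, upstream match, lower: aaatgttagatTTGCCAAaaagcttgactt
Tsnax, downstream match, lower: ttgtgagaataTTGCCAAaatcattttaat

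Of 89 further pathway genes tested, 10 held TTGCCAA in the 3′-UTR, of which 4 were lower (Ago1, Fmr1, Fxr1 and Tsnax), 2 were higher (Ago2 and Ajuba) and 4 did not pass the test. Their median log2 fold change was 0.029, against 0.064 for the 79 without a match. In 8 of the 10 at least 1 match was followed by an A, the 8-base match, and over these 8 the median was -0.077, with 4 lower and 1 higher. Over all genes tested with a known 3′-UTR, the medians were -0.069 for 1568 genes with a match (285 higher, 580 lower) and 0.0074 for 10955 without. The 656 genes with the 8-base match had a median of -0.17, with 80 higher and 312 lower. For the miR-30 seed match, the median was 0.035 over 2055 genes (647 higher, 429 lower). Of the 4 lower genes, Ago1 was among the genes to be named in any case. Fmr1, Fxr1 and Tsnax were singled out here after their values were seen.

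The list of 91 further pathway genes was described by role. Of these, 89 were tested, and Lin28a and Lin28b, which block let-7 maturation in embryonic cells, had 0 reads. By adjusted p, 36 of the 89 were called (40.4%, against 46.7% of all genes), 25 higher and 11 lower. With library totals in place of TMM factors the split was 34 higher and 8 lower, and with both samples numbered 1 left out it was 20 and 9. Of the calls over all genes, 49.6% were higher in the main fit. This share was 58.9% with library totals and 49.4% with both samples numbered 1 left out. The median log2 fold change was 0.054. Both cutoffs were passed by 2 genes, Fmr1 and Ajuba (listed as Jub), or 1 gene higher and 1 lower, where 1.97% and 5.48% of all genes passed.

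Fmr1, which encodes the RNA-binding protein FMRP, was at 163, 190 and 172 CPM in controls and 112, 110 and 111 CPM with the mimic. All mimic values lay far below the controls, with a log2 fold change of -0.65 (SE 0.045, edgeR adjusted p = 4.49e-08). Its paralogs split, Fxr1 lower at -0.21 and Fxr2 higher at 0.22. Ajuba, a LIM-domain protein of miRNA silencing complexes, was at 24.7, 23.9 and 23.3 CPM in controls and 36.9, 37.5 and 34.6 CPM with the mimic. Its log2 fold change of 0.60 (SE 0.052, edgeR adjusted p = 5.2e-07) exceeded the 1.5-fold cutoff (0.585 on this scale) by less than its SE. It missed that cutoff without control replicate 3 (0.576) or mimic replicate 2 (0.579). Among the Argonaute and loading genes, 5 of 19 were higher and 4 lower (47.4% called, near the 46.7% of all genes). The chaperone genes Hsp90aa1 and Hsp90ab1, whose proteins hold Argonaute open for loading, were both higher (0.31 and 0.10).

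Downstream of the GW182 proteins, the decapping and repression genes had 8 of 16 higher and 2 lower. The share called was 62.5%, against 46.7% of all genes (23.2% higher and 23.5% lower). Of the 8, Dcp2, Gigyf2 and Xrn1 lost their call with both samples numbered 1 left out. The smallest p values were those of Edc4 (0.23), Dcp1a (0.30) and Patl1 (0.23), scaffold and activator genes of decapping, all higher on the log2 scale. Lsm1 (-0.27) and Gigyf1 (-0.26) were the lower genes, named for their small count. In the deadenylase group (CCR4-NOT, PAN and poly(A)-binding genes), 3 of 18 were higher and 2 lower (27.8% called, against 46.7% of all genes). Cnot7, a catalytic subunit, rose by a log2 fold change of 0.31 and Btg2, which activates it, by 0.42, while the poly(A)-binding protein gene Pabpc4 fell by 0.28 on the log2 scale. Cnot1, the scaffold that GW182 proteins contact, was lower by a log2 fold change of -0.072 (edgeR adjusted p = 0.0393), a call kept in 5 of 16 alternative settings and lost without any 1 of the 6 samples (-0.083 to -0.062).

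Among genes of miRNA turnover, 2 of 7 were higher and 1 lower (42.9% called, against 46.7% of all genes). Zswim8 (listed as 2310021P13Rik), the ubiquitin ligase receptor of target-directed miRNA decay, was higher by 0.16, and Tsnax (translin-associated factor X) was lower by a log2 fold change of -0.41 (edgeR adjusted p = 8.13e-07). Pnpt1 was higher by 0.24, with 57.9 CPM in mimic replicate 1, where the interferon-response sum was highest, and 48.3 CPM in each of the other mimic samples. Its log2 fold change was 0.15 without mimic replicate 1, and 0.11 with both samples numbered 1 left out, where the call was lost (edgeR adjusted p = 0.0707). Of 5 tested genes that tail or degrade precursors, Tut1 alone was called (20%, against 46.7% of all genes), at 0.26.

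**Figure D4:**
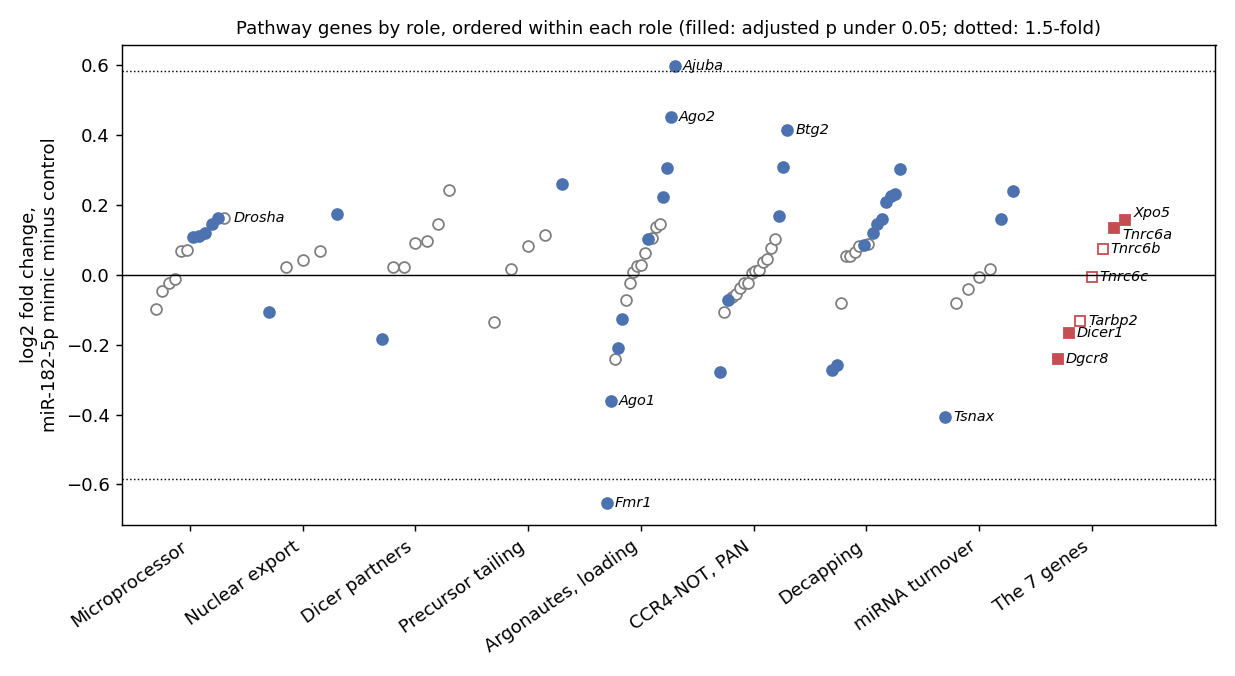
Each point is a gene, placed by its log2 fold change (mimic minus control, vertical axis) within its role and ordered from lowest to highest. Circles are 89 further pathway genes and squares the 7 genes, filled where the edgeR adjusted p was under 0.05, with dotted lines at 1.5-fold. Only Fmr1 and Ajuba lie beyond a dotted line.

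For each of the 7 genes, the most similar of the 89 tested pathway genes was found by the distance between mean-centred log2 CPM profiles over the 6 samples. Tnrc6c paired with Cnot6l (distance 0.047), Tnrc6a with Ddx17 (0.056), Xpo5 with Eif4e2 (0.067) and Tnrc6b with Hspa8 (0.082). The other 3 had less close partners, Prkra for Dgcr8 (0.12) and Fxr1 for Dicer1 (0.13) and for Tarbp2 (0.17). A small distance means similar levels across samples after centring, and flat genes are close to each other by construction.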

How the data were processed

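The files deposited by the authors hold raw counts of reads for each gene symbol, 1 list per sample. The labels describe stranded poly(A) libraries, which leave out mature miRNAs, and the submitters' processing notes name bcl2fastq, TopHat2, HTSeq and mm9. The annotation and strand setting of the counting are not given in the sources used here. The closing tally lines, which name no gene, were left out. They held 12.7% to 13.0% of uniquely aligned reads outside genes and 0.652% to 0.667% ambiguous ones. Reads that aligned to several places were counted to no gene. Replicate pairs were not copies, with a chi-square of 2.08 to 6.90 per degree of freedom.

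Counts were analysed in R 4.3.3 with edgeR 4.0.16 (TMM scaling, the filterByExpr filter at its default of 10 counts, quasi-likelihood F test by glmQLFit and glmQLFTest, no block), with Benjamini-Hochberg adjustment over 13117 genes. Standard errors were derived from the F statistic. The cutoffs, adjusted p under 0.05 and 1.5-fold, are those of the study. The fit was tested on simulated counts. Alternatives used DESeq2 1.42.0, limma 3.58.1, other scaling and filters, thinning, the replicate number as a block, and leaving out samples. Similarity of profiles used CPM plus 0.1 before log2.

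Symbols were matched to GENCODE M21 (GRCm38) for 22197 of 22609 genes, 1906 through older symbols. All coordinates, lengths and 3′-UTRs (longest of protein-coding transcripts) come from it, not from the build of the authors. Python 3.11.15 with pandas 2.3.3 and matplotlib 3.10.9 was used. The 7 genes, the lists and the rules for naming were chosen with earlier results of these data known. Named were the 7 genes, Drosha, the Argonaute genes, list genes past both cutoffs, the 3 smallest p values per role and the most similar genes. Other genes were named after their values were seen.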

Additional observations from a re-analysis of the deposited data

How the results depend on the processing

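Dgcr8, Xpo5, Dicer1 and Tnrc6a kept their direction and an adjusted p under 0.05 in all 16 alternatives, and Tarbp2 passed the test in none. Tnrc6b passed it with library totals only (log2 fold change 0.11), without mimic replicate 1 and with both samples numbered 1 left out (0.12), and its values without 1 sample ran from 0.042 to 0.10. Library totals shifted the log2 fold changes of all genes by a median of 0.037. Tnrc6c, which is near 0, changed sign with library totals only (0.032), DESeq2 (0.0010) and thinning (0.0030), and ran from -0.010 to 0.0022 without 1 sample. Ago4 ran from -0.19 to 0.053 without 1 sample and was 0.074 with both samples numbered 1 left out. The cause was not tested.

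The count of the 7 genes called stayed at 4 or 5, and 0 passed both cutoffs in every alternative. The count of pathway genes past both cutoffs was 1 to 2 without 1 sample. With the longest transcript as the length, mean levels over the 6 samples were 5.96 (Dgcr8), 16.1 (Xpo5), 7.69 (Dicer1), 2.55 (Tarbp2), 16.6 (Tnrc6a), 6.57 (Tnrc6b) and 5.50 (Tnrc6c) CPM per kb. The labels number samples 1 to 3 in both groups, but same-numbered samples did not deviate together (correlations -0.18, -0.042 and -0.075). With the replicate block 4 of the 7 genes, 34 pathway genes and 5716 of all genes were called, and the log2 fold changes of the 7 genes were -0.24 (Dgcr8), 0.16 (Xpo5), -0.17 (Dicer1), -0.13 (Tarbp2), 0.13 (Tnrc6a), 0.073 (Tnrc6b) and -0.0045 (Tnrc6c). Other calls lost in some settings were those of Gigyf2, Dcp2, Xrn1, Safb2, Khsrp, Tob2 and Pnpt1. Tarbp2, with at most 201 reads per sample, limits what the depth can show.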
